A study of Rattus norvegicus with 30 samples.

Results

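Rbm3 and Cirbp, the genes of the cold-inducible RNA-binding proteins, were followed through RNA-seq libraries of rat dorsal hippocampus. They are 2 of the 17455 genes in the deposited count table, and both were among the 12547 genes that entered the tests. Rbm3 was chosen by its measured values, as the gene whose adjusted p for diet passed 0.05 in these libraries, so its diet values describe that choice. Cirbp was added as its paralogue. The 30 libraries fell into 8 groups by sex, genotype and diet. The genotype labelled alzheimer is the TgF344-AD rat, a transgenic Fischer 344 line that carries mutant human APP and presenilin genes under the mouse prion promoter. The other genotype is labelled wildtype. Rats of both genotypes received a western diet or chow, the standard diet of the study. The groups were female alzheimer on western diet (3 libraries) and on chow (4), female wildtype on western diet (3) and on chow (4), male alzheimer on western diet (4) and on chow (4), and male wildtype on western diet (4) and on chow (4). Every group held libraries of cohort 2 (16 in all) and cohort 1 (14 in all), and each female western group had 1 library of cohort 1. The sources used here give no age, housing temperature or hour of tissue collection.

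RBM3 and CIRBP are small glycine-rich proteins with an RNA-recognition motif, and both are induced when cells of mammals cool by a few degrees. In mouse hippocampus, RBM3 is known for protecting synapses in cooled animals with neurodegeneration, acting through the reticulon Rtn3 and downstream of BDNF and its receptor TrkB (Ntrk2). CIRBP is known in mouse cells for holding the amplitude of the circadian clock by its effect on clock transcripts, and in both genes splicing that follows temperature sets how much full-length mRNA is made. Heat-shock chaperones respond to temperature in the opposite sense in cultured cells. Gene-level counts hold all isoforms together, so the splice forms were not measured here.

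The sequence just before each gene start is shown because Cirbp is known in mouse for a mild-cold-responsive promoter element, TCCCCGCC, and the same search was made at Rbm3. The stretches come from RefSeq promoter records of the rat assembly GRCr8, which is not known to be the build behind the counts, and both genes matched by symbol. Rbm3 lies on chromosome X from 17020863 to 17024341 and Cirbp on the opposite strand of chromosome 7 from 10184515 to 10189623. The bases run 5′ to 3′ on the strand of the gene, up to the last base before its annotated start, and capitals mark TCCCCGCC.
Rbm3, chrX:17020655-17020862, plus strand: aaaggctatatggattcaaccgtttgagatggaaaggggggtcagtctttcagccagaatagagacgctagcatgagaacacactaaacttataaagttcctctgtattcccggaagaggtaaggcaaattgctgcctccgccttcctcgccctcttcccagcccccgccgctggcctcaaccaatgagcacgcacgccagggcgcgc
Cirbp, chr7:10189624-10189725, minus strand: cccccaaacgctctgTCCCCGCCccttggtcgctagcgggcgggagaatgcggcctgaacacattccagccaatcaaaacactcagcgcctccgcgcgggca
Over the whole promoter records, all of the same length and read on both strands, TCCCCGCC was found in Cirbp, at the capitals, and in 1602 of 33469 rat promoters (4.79%), and it overlaps the letters of GC-box motifs. The core of the cyclic AMP response element, CGTCA, was found in both records, downstream of the printed bases (in Cirbp on the opposite strand), and in 21.2% of all promoters. The heat-shock element core GAANNTTC, present in 8.59% of all promoters, was found in neither record. These matches describe letters and not sites in use.

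The libraries held 13.9 to 31.4 M counts each (M, mega; median 17.8), with 15.6 to 21.99 M in western and 13.9 to 31.4 M in chow libraries. App, the rat counterpart of a transgene, averaged 3294 ± 76.3 in alzheimer libraries, in counts per M (CPM), against 1672 ± 52.7 CPM for wildtype (SD, n = 15 each), without overlap, so the genotype labels held in every library, and the sex labels held likewise. Summed markers of pyramidal and granule neurons lay between 2186 and 2657 CPM, and those of thalamus, a neighbouring region, between 45.3 and 105 CPM. In such bulk tissue, fewer cells of a type and less RNA per cell cannot be told apart. The labels do not state that each library is a separate animal, so p-values measure the spread between libraries.

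Rbm3 was lowest in the females on western diet. In female alzheimer rats on western diet it read 73.1, 55.9 and 73.7 CPM (replicates 11, 18 and 21), and on chow 107, 95.3, 86.8 and 92.4 CPM (replicates 10, 14, 16 and 19). In female wildtype rats on western diet it read 74.6, 67.8 and 74.2 CPM (replicates 12, 17 and 22), and on chow 92.6, 93.2, 79.4 and 85.1 CPM (replicates 9, 13, 15 and 20). In both female genotypes every western library lay below every chow library, and replicate 18 lay below all other libraries of the series.

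The male libraries were closer together. In male alzheimer rats on western diet Rbm3 read 76.3, 82.9, 77.7 and 92.7 CPM (replicates 1, 6, 23 and 28), and on chow 79.1, 96.1, 86.4 and 93.1 CPM (replicates 3, 8, 25 and 30). In male wildtype rats on western diet it read 86.5, 86.5, 86.9 and 89.9 CPM (replicates 2, 5, 24 and 27), and on chow 87.4, 102, 87.4 and 97.5 CPM (replicates 4, 7, 26 and 29). The western and chow libraries of the males overlapped in both genotypes. The 4 male wildtype western libraries formed the tightest group, with an SD of 1.67 CPM.

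The group means of Rbm3, put in order, started with female alzheimer western (67.6 ± 10.1 CPM) and female wildtype western (72.2 ± 3.82 CPM). Male alzheimer western (82.4 ± 7.44 CPM), male wildtype western (87.5 ± 1.67 CPM), female wildtype chow (87.6 ± 6.57 CPM) and male alzheimer chow (88.7 ± 7.57 CPM) followed. Male wildtype chow (93.6 ± 7.35 CPM) and female alzheimer chow (95.3 ± 8.52 CPM) stood at the top (SD over 3 or 4 libraries). Among neighbours in this order, only the step of 10.2 CPM between female wildtype western and male alzheimer western was larger than the SD of either group, and only there did the libraries not overlap. Over all libraries the coefficient of variation of Rbm3 was 12.6%.

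Cirbp varied less, with a coefficient of variation of 8.06%, and its groups overlapped more. In female alzheimer rats on western diet it read 67.9, 57.3 and 68.1 CPM (replicates 11, 18 and 21), and on chow 73.3, 69.4, 66.9 and 83.3 CPM (replicates 10, 14, 16 and 19). In female wildtype rats on western diet it read 54.9, 68.7 and 61.8 CPM (replicates 12, 17 and 22), and on chow 74.9, 71.8, 78.1 and 67.4 CPM (replicates 9, 13, 15 and 20). Of the 6 female western libraries, 3 lay below the lowest female chow library. Replicate 18, the library with the least Rbm3, held the second lowest Cirbp of the series.

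In male alzheimer rats on western diet Cirbp read 68.2, 68.6, 71.4 and 71.7 CPM (replicates 1, 6, 23 and 28), and on chow 68.8, 63.0, 68.8 and 69.7 CPM (replicates 3, 8, 25 and 30). In male wildtype rats on western diet it read 66.7, 64.7, 69.1 and 65.8 CPM (replicates 2, 5, 24 and 27), and on chow 69.3, 68.1, 61.0 and 67.3 CPM (replicates 4, 7, 26 and 29). Western and chow libraries of the males overlapped throughout. In order of the means, Cirbp ran through female wildtype western (61.8 ± 6.92 CPM), female alzheimer western (64.4 ± 6.18), male wildtype chow (66.4 ± 3.70), male wildtype western (66.6 ± 1.87), male alzheimer chow (67.6 ± 3.09), male alzheimer western (70.0 ± 1.81), female wildtype chow (73.0 ± 4.58) and female alzheimer chow (73.2 ± 7.19 CPM). No pair of neighbours in that order differed by more than the larger of their SDs. The female western groups were at the low end for both genes and female alzheimer chow at the top for both.

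**Figure D1:**
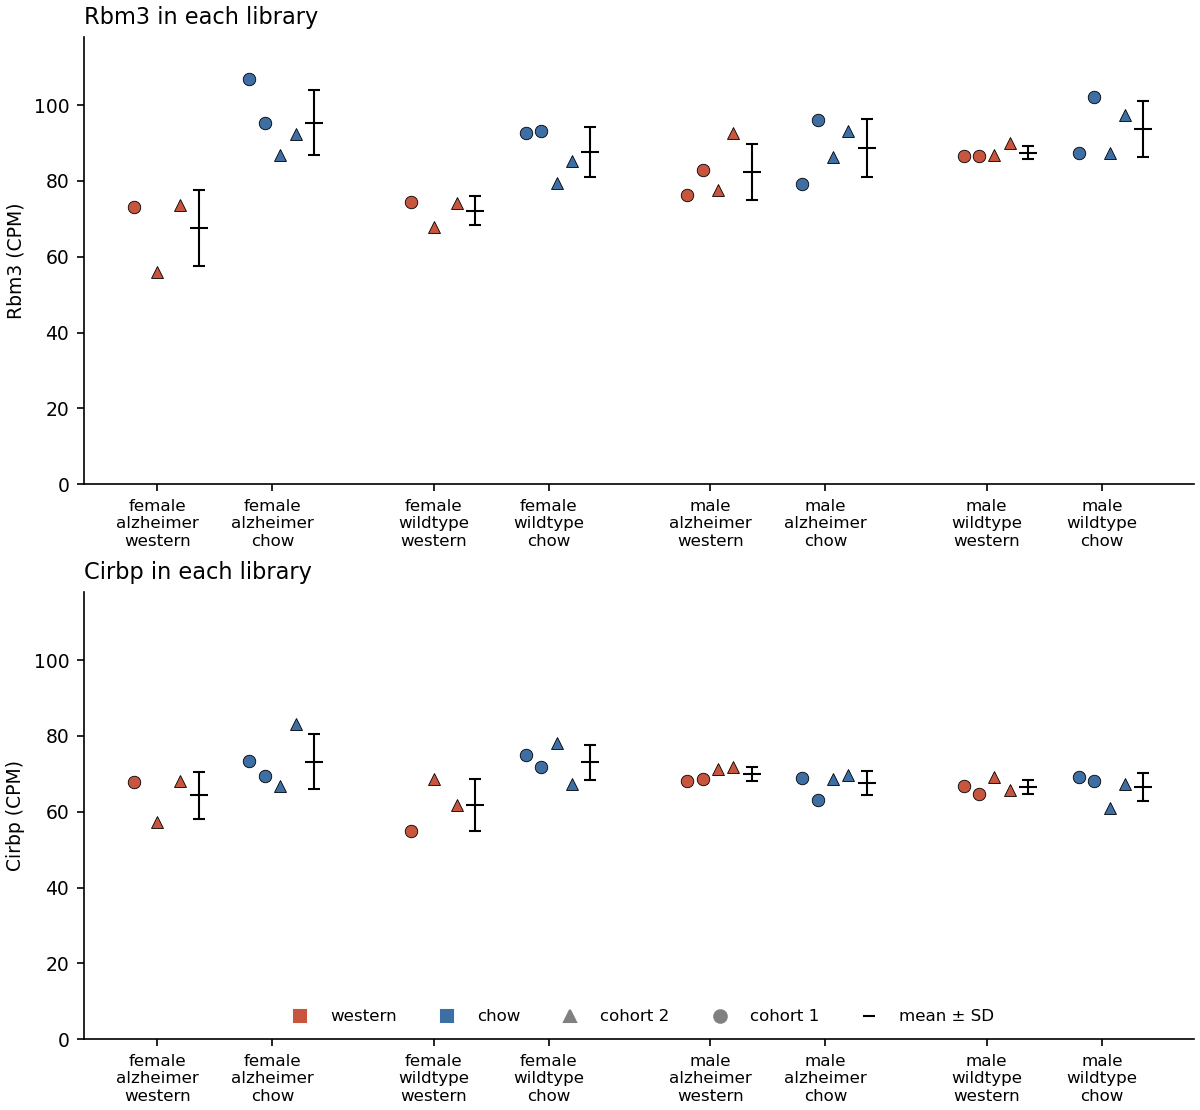
Rbm3 (top) and Cirbp (bottom) in CPM in each library, by sex, genotype and diet, with western (red) left of chow (blue), triangles for cohort 2, circles for cohort 1 and bars for the mean ± SD. In the females, Rbm3 of the 6 western libraries (at most 74.6 CPM) lies below all 8 chow libraries (at least 79.4 CPM), while the male groups overlap.

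Averaged over sex and genotype, Rbm3 was lower on western diet and Cirbp showed a smaller difference in the same direction that did not pass. Rbm3 averaged 78.5 ± 9.87 CPM in western libraries (n = 14, 55.9 to 92.7, median 77.0) and 91.3 ± 7.53 CPM in chow libraries (n = 16, 79.1 to 107, median 92.5). Its fitted log2 fold change, western over chow, was -0.24 ± 0.040 (SE, 95% interval -0.32 to -0.16), and 13 of 14 western libraries lay below the chow mean of their own sex and genotype. The value that chose it was an edgeR adjusted p of 0.00974, and it was the 1 gene of 12547 called for diet (0.00797%).

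Just outside the threshold stood Txnl4a, a component of the spliceosome, which was higher on western diet by 0.20 ± 0.041 on the log2 scale (edgeR adjusted p 0.139). Hist1h2bq, a histone H2B gene of a family with near-identical copies (log2 fold change 0.15 ± 0.032), and Thrsp, a gene of fat synthesis that responds to thyroid hormone (-0.19 ± 0.043), came next, both with an edgeR adjusted p of 0.217. In the DESeq2 fit, Txnl4a (adjusted p 0.0402) and Thrsp (0.0468) passed beside Rbm3. The Rbm3 diet difference was -0.20 in cohort 2 alone, where its edgeR adjusted p was 0.826, and -0.27 in cohort 1 alone, where it was 0.0435. Without the 3 libraries highest for choroid plexus markers the difference was -0.25 and its edgeR adjusted p 0.0628.

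Cirbp averaged 66.1 ± 4.94 CPM in western libraries (54.9 to 71.7) and 70.1 ± 5.42 CPM in chow libraries (61.0 to 83.3), and the ranges overlapped between 61.0 and 71.7 CPM. Its log2 fold change was -0.096 ± 0.034 (95% interval -0.17 to -0.026), the 117th smallest p of all genes, and the edgeR adjusted p was 0.822. Of 14 western libraries, 8 lay below the chow mean of their own sex and genotype. Cirbp was -0.073 in cohort 2 alone and -0.13 in cohort 1 alone, so its sign held in both without passing in either (edgeR adjusted p 0.878 and 0.389). Whether the diet differences of Rbm3 and Cirbp differ from each other was not tested.

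By size, the diet difference of both genes was larger in females, and the test of the females against the males is given after the values. In females, Rbm3 averaged 69.9 ± 7.27 CPM on western diet (n = 6) and 91.5 ± 8.18 CPM on chow (n = 8), a log2 fold change of -0.38 ± 0.059. In males, it averaged 84.9 ± 5.67 CPM on western diet and 91.1 ± 7.39 CPM on chow (n = 8 each), a log2 fold change of -0.10 ± 0.054 (95% interval -0.21 to 0.0067). All 6 female and 7 of 8 male western libraries lay below the chow mean of their own genotype. By genotype and sex, the Rbm3 difference was -0.49 ± 0.082 in female alzheimer, -0.27 ± 0.083 in female wildtype, -0.11 ± 0.076 in male alzheimer and -0.099 ± 0.075 in male wildtype rats.

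For Cirbp, the females averaged 63.1 ± 6.04 CPM on western diet and 73.1 ± 5.58 CPM on chow, a log2 fold change of -0.22 ± 0.050 (95% interval -0.32 to -0.12, edgeR adjusted p 0.0616). It passed in DESeq2 (adjusted p 0.0145), in edgeR without the count filter (0.0125) or without the choroid-rich libraries (0.0252), and in 5 of 30 edgeR fits with a library left out. Of 10 alternatives other than leaving out single libraries, it did not pass in 7, limma-voom among them. All 6 female western libraries lay below the chow mean of their own genotype. In males the log2 fold change of Cirbp was 0.026 ± 0.047 (95% interval -0.068 to 0.12), and 2 of 8 western libraries lay below that mean. On chow itself, the mean of Cirbp was higher in the female groups (73.2 and 73.0 CPM) than in the male groups (67.6 and 66.4 CPM).

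Set against each other, the female diet difference minus the male one was -0.28 ± 0.079 for Rbm3 (95% interval -0.44 to -0.12) and -0.25 ± 0.069 for Cirbp (-0.38 to -0.11). Neither passed in edgeR, with adjusted p values of 0.0696 and 0.0649, and both passed in DESeq2, with 0.0378 and 0.0362. In limma-voom neither passed. Of all genes tested, 154 were called for this contrast in edgeR (1.23%). The values were close in the cohorts, at -0.27 in cohort 2 and -0.26 in cohort 1 for Rbm3, and -0.27 in cohort 2 and -0.24 in cohort 1 for Cirbp. In females alone, 23 genes were called for diet (0.183%), and in males alone 16 (0.128%). The diet difference did not differ detectably between genotypes (alzheimer minus wildtype, -0.11 ± 0.079 for Rbm3 and 0.051 ± 0.068 for Cirbp, edgeR adjusted p 0.9999 for both), with 95% intervals of -0.27 to 0.047 for Rbm3 and -0.088 to 0.19 for Cirbp.

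**Figure D2:**
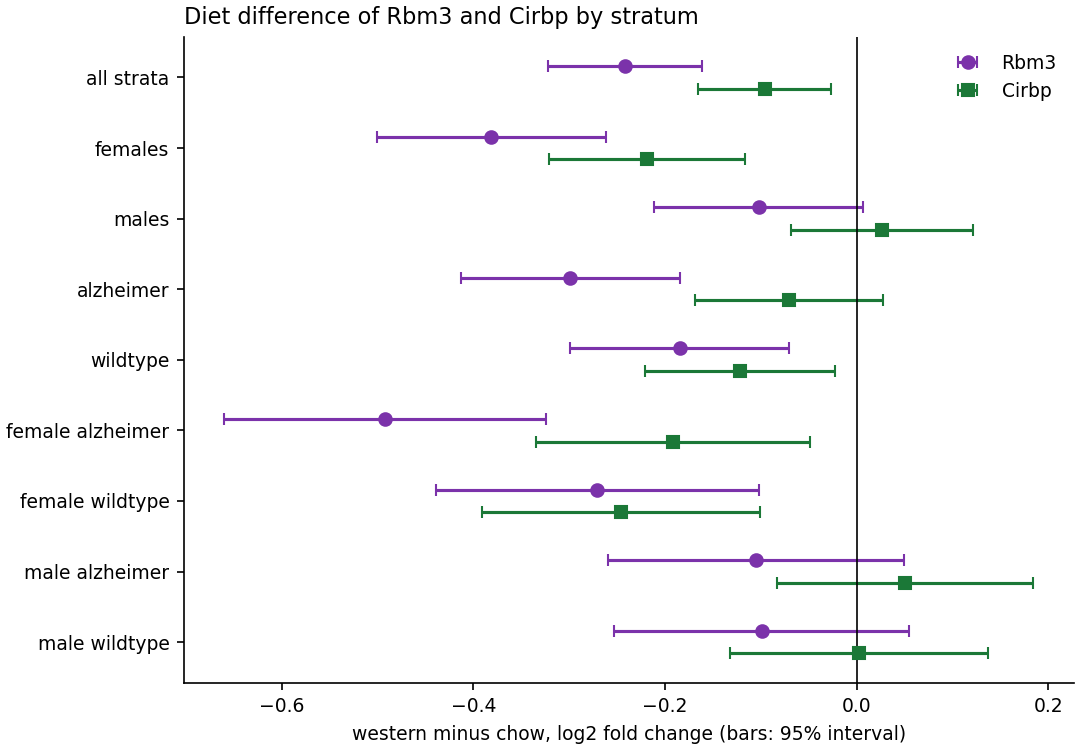
Western minus chow log2 fold change of Rbm3 (circles) and Cirbp (squares) with 95% intervals, over all strata and by sex, genotype and both. Rbm3 is furthest from 0 in female alzheimer rats (-0.49), and in the males the intervals of both genes include 0.

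In the same contrast, lists of cell markers leaned to either side of 0 or were mixed, and no list was tested as a set. All 8 oligodendrocyte markers, 8 ependymal markers and 7 thalamic markers tested had a negative female minus male diet difference, with medians of -0.21, -0.31 and -0.17 beside -0.0044 over all genes. No marker in these lists passed, with smallest edgeR adjusted p values of 0.211, 0.297 and 0.477. Of 8 markers of vessels, 7 were below 0, and Cldn5 (-0.26, edgeR adjusted p 0.0107) and Slco1a4 (-0.33, 0.0122) passed. Of 8 microglial markers, 7 were below 0, and 1 passed, the receptor P2ry12 (-0.46, 0.0236). In the positive direction, the neuronal factor Neurod2 (0.23, 0.0329) passed. It came from a list of pyramidal and granule neuron markers with 5 members above 0, 4 below and a median of 0.044. Markers of all neurons had 6 members above 0 and 2 below, astrocytes 3 above and 5 below, and choroid plexus 3 above and 4 below. No marker in these last lists was called. The called markers were named after their values were seen, beside 154 of all 12547 genes called for this contrast (1.23%). The summed oligodendrocyte markers ran from 8136 to 13295 CPM in female western, 10573 to 14092 in female chow, 9502 to 14646 in male western and 8205 to 13454 CPM in male chow libraries.

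The summed ependymal markers ran from 24.2 to 38.6 CPM in female western and 34.0 to 42.1 CPM in female chow libraries, against 23.8 to 43.1 and 26.2 to 38.0 CPM in the males. Those of vessels ran from 340.0 to 453 CPM in female western and 391 to 463 CPM in female chow, and 350 to 490.2 CPM in male western and 346 to 423 CPM in male chow libraries. Choroid plexus markers ran from 5.37 to 22.9 CPM in western and 5.30 to 68.7 CPM in chow libraries. Of the 12 markers of that tissue, 7 had enough counts to be tested. Among the others, Otx2, a defining factor of that tissue, had 0 counts in 29 of 30 libraries. Kcnj13 had 0 counts in only 2 libraries, Prlr in 4, and Sostdc1 and Tmem72 in 12 each. The female western and female chow ranges overlapped for every one of these sums. Their part in the values of Rbm3 and Cirbp was not tested.

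For both genes the 95% interval of the genotype difference included 0. Rbm3 averaged 84.6 ± 12.5 CPM in alzheimer rats and 86.1 ± 9.06 CPM in wildtype rats, a log2 fold change of -0.035 ± 0.039 (95% interval -0.12 to 0.045, edgeR adjusted p 0.669). Cirbp averaged 69.1 ± 5.45 CPM in alzheimer rats and 67.3 ± 5.59 CPM in wildtype rats (0.039 ± 0.034, 95% interval -0.030 to 0.11, edgeR adjusted p 0.550), in a contrast that called 1007 of 12547 genes (8.03%). Whether these genotype differences are smaller than the diet differences was not tested.

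Rbm3 was lower in females, without passing. It averaged 82.2 ± 13.4 CPM in females and 88.0 ± 7.12 CPM in males, a log2 fold change of -0.13 ± 0.040 (edgeR adjusted p 0.0876, DESeq2 0.0466), and 11 of 14 female libraries lay below the male mean of their own genotype and diet. The female chow groups (87.6 and 95.3 CPM) spanned about the same levels as the male chow groups (88.7 and 93.6 CPM), while the female western groups (67.6 and 72.2 CPM) lay below the male western groups (82.4 and 87.5 CPM). For Cirbp, the sex difference was 0.0032 ± 0.034, and 105 genes were called for sex (0.837%). Cohort 2 against cohort 1 gave -0.054 ± 0.039 for Rbm3 and 0.030 ± 0.034 for Cirbp, with edgeR adjusted p values of 0.605 and 0.764, where 11 genes were called (0.0877%).

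Rbm3 and Cirbp varied together only loosely from library to library. Over 30 libraries, Pearson's r of their log2 CPM was 0.433 (permutation p = 0.0217, Benjamini-Hochberg adjusted over 7 relations 0.0760) and Spearman's rho 0.334 (permutation p = 0.0714, adjusted 0.25). Without the 2 libraries farthest from the median of Rbm3 (replicates 17 and 18) r was 0.3004 (permutation p = 0.123). Without replicate 18 alone r was 0.268 (permutation p = 0.162), so the unadjusted p under 0.05 over all libraries depends on replicate 18. Within cohort 2, which holds replicate 18, r was 0.463, and within cohort 1, which does not, it was 0.456 (permutation p = 0.0684 and 0.0995). In females r was 0.631 and in males -0.218 (permutation p = 0.0178, adjusted 0.0760, and 0.417), a split chosen after the values were seen. Libraries were permuted across the diet groups, so each r and p above includes the diet difference by which Rbm3 was chosen. They are therefore no separate support for a link between the 2 genes. Taken as deviations from the mean of their group and cohort, hereafter residuals, r was 0.230 (permutation p = 0.219). Cirbp held rank 167 among 12546 genes by r with Rbm3, and rank 2555 on residuals.

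**Figure D3:**
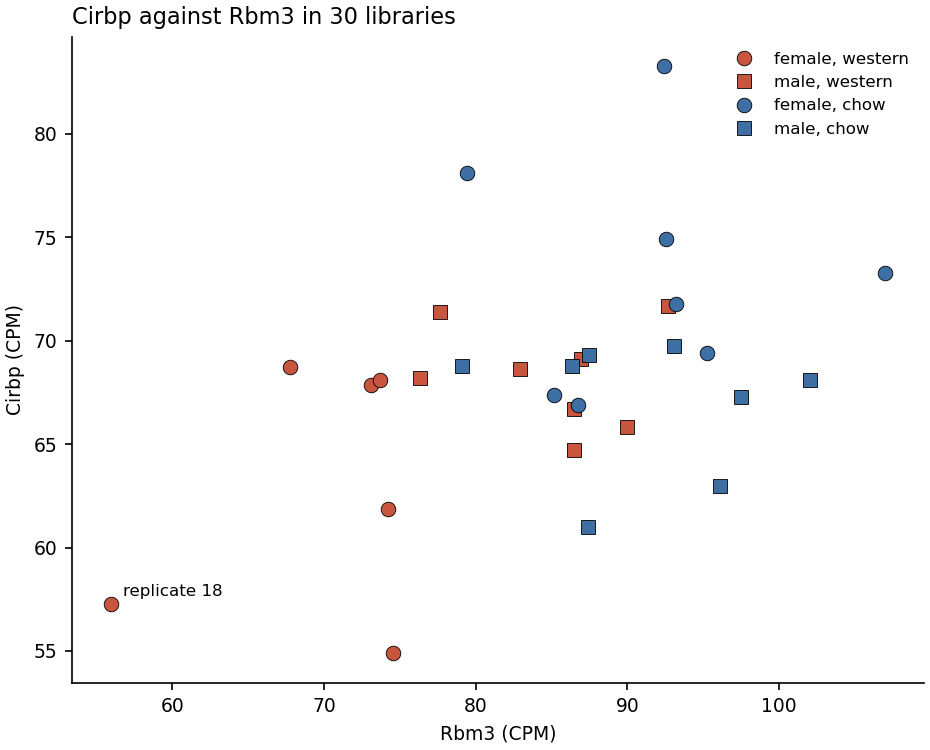
Cirbp against Rbm3 in CPM, 1 point per library, with western in red, chow in blue, circles for females and squares for males. The library labelled replicate 18 has the lowest Rbm3 (55.9 CPM), and r falls to 0.268 without it.

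Genes that tracked Rbm3 were named by r over the 30 libraries. The 5 highest were Acat1, a mitochondrial enzyme of ketone and isoleucine breakdown (0.76), Thrsp (0.74), the zinc transporter Slc39a3 (0.71), the interferon regulatory factor Irf7 (0.66) and Ptrhd1 (0.65). The 3 lowest were the heat-shock chaperone Hsph1, a partner of HSP70 (-0.72), the ceramide kinase Cerk (-0.72) and Hspa5 (-0.71). Each r shares the diet groups, and both genes of a pair share the depth and RNA of the library, so these are descriptions with no p. Acat1 itself differed by -0.069 on the log2 scale between western and chow.

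Once the group and cohort means were taken out, other genes stood nearest to Rbm3. Of 12546 genes, Nr1d2 had the highest residual r (0.83) and Hspa5 the lowest (-0.84). Nr1d2 encodes REV-ERB beta, a repressor of the clock, and Hspa5 encodes BiP, the main HSP70 of the endoplasmic reticulum. After Nr1d2 came the peroxisomal oxidase Pipox (0.80, at a mean level of only 0.657 CPM), the efflux transporter Abcg2 (0.74), the endosomal protein Wdr91 (0.73) and Dbp (0.72), a clock output factor that binds D-boxes. For comparison, 5% of all genes lay below -0.443 and 5% above 0.430.

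The values in each cohort are given as a description, since all 30 libraries had picked these genes. For Hspa5 the residual r was -0.88 in cohort 2 and -0.79 in cohort 1, and -0.79 without the 2 libraries farthest from the median of Rbm3. For Nr1d2 it was 0.84 in cohort 2, 0.85 in cohort 1 and 0.84 without those libraries. Among other chaperones and factors of the endoplasmic reticulum, named after the ranking was seen, it was -0.77 for Calr (calreticulin) and -0.72 for Hsp90b1 (GRP94), but 0.56 for Herpud1, 0.24 for Manf and 0.19 for Creld2. Among other clock genes it was 0.69 for the repressor Ciart and 0.64 for Per1, but -0.68 for Arntl (BMAL1, the activator of the clock), -0.54 for Tef and -0.32 for Clock. With Cirbp the residual r was -0.14 for Hspa5, -0.066 for Nr1d2 and 0.059 for Dbp, and since these genes were picked by Rbm3, nothing is read from the difference between the pair.

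The levels behind these values differed little between diets. Hspa5 averaged 435 CPM in female western and 412 CPM in female chow libraries, and 430.4 CPM in male western and 418 CPM in male chow libraries. Its diet difference over all strata was 0.061 ± 0.027 (edgeR adjusted p 0.861). Nr1d2 averaged 100.1 CPM in female western and 98.9 CPM in female chow libraries, and 101 CPM in male western and 102 CPM in male chow libraries, with a diet difference of -0.00022 ± 0.031.

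**Figure D4:**
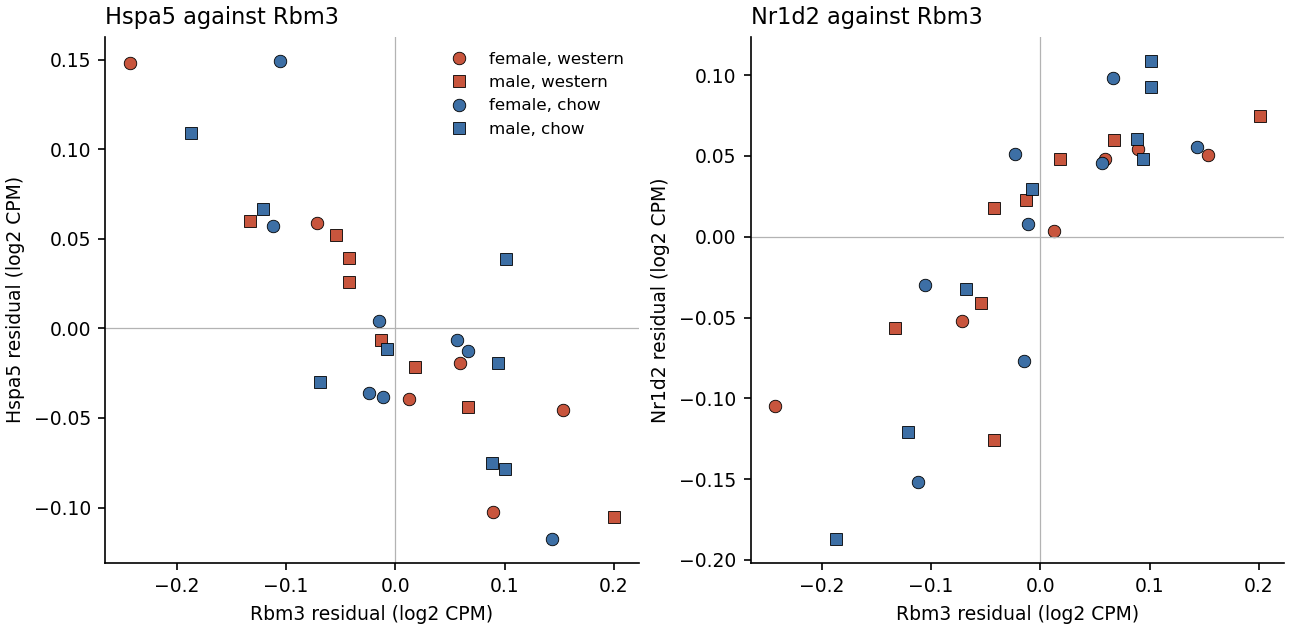
Residuals of Hspa5 (left) and Nr1d2 (right) from their group and cohort means against those of Rbm3, on the log2 CPM scale, 1 point per library, coloured by diet and shaped by sex. Where Rbm3 is high, Hspa5 is low (r = -0.84) and Nr1d2 is high (r = 0.83), among libraries of both diets and both sexes.

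The genes nearest to Cirbp were others. The highest r over 30 libraries belonged to Erf, an ETS repressor (0.75), Srsf5, an SR splicing factor (0.70), the interferon-induced Ifitm3 (0.66), and Hip1r and Dbnl, which act on actin and endocytosis (0.66 and 0.61). Among the lowest were Jmjd6 (-0.74) and the terminal nucleotidyltransferase Tent5a (-0.65). On residuals, Jmjd6 was the lowest of all genes (-0.84), with -0.85 in cohort 2 and -0.84 in cohort 1. Jmjd6 encodes a hydroxylase that modifies splicing factors, and it averaged 14.2 CPM in female western and 12.4 CPM in female chow libraries, and 13.8 CPM in male western and 14.5 CPM in male chow libraries. The 5 highest on residuals were the low-count genes Pole2 (0.72, mean level 0.605 CPM) and Mx1 (0.71, mean level 1.34 CPM), and Cbr1 (0.71), Hip1r (0.67) and Tspan15 (0.67). With Rbm3, the residual r of Jmjd6 was -0.067.

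Genes of the pathways around the pair were counted in 8 lists with 134 tested members. For diet, edgeR, limma-voom and DESeq2 each called 0 of them, while 10 members had an unadjusted p under 0.05 in edgeR (7 higher and 3 lower on western diet), 15 in limma-voom and 9 in DESeq2. Over all 12547 genes, 696 had such a p in edgeR. For limma-voom and DESeq2 the count over all genes was not made, so their 15 and 9 members have no background here. The upstream receptor Ntrk2 averaged 670.0 CPM in western and 648 CPM in chow libraries (log2 fold change 0.057 ± 0.024, edgeR adjusted p 0.831). Its ligand Bdnf averaged 77.8 CPM in western and 73.7 CPM in chow libraries (0.078 ± 0.041), and the downstream reticulon Rtn3 1544 CPM in western and 1525 CPM in chow libraries (0.015 ± 0.016). None of the 3 passed for diet.

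Among splicing regulators, Hnrnph1, which acts on the cold-dependent exon of human RBM3, averaged 198 CPM in western and 199 CPM in chow libraries (-0.0098 ± 0.019). The kinases Clk1 and Clk4, whose activity follows body temperature, differed by -0.046 ± 0.074 and -0.016 ± 0.061 between western and chow. In the females minus males contrast their diet differences were 0.51 ± 0.15 and 0.38 ± 0.12, opposite in sign to Rbm3 and Cirbp, with edgeR adjusted p of 0.0765 and 0.111. The 22 members of the list had a median of 0.050 in that contrast and of -0.0027 for diet.

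Heat-shock chaperones had a diet median of 0.027, with 18 of 23 members above 0, and endoplasmic reticulum chaperones one of 0.026, with 15 of 17 above 0, beside -0.00064 over all genes. Hsph1 averaged 485 CPM in western and 467 CPM in chow libraries (0.056 ± 0.021, edgeR adjusted p 0.822), and Dnajb1, an HSP40, 86.0 CPM in western and 83.9 CPM in chow libraries (0.038 ± 0.025). The inducible HSP70 genes were near the floor, with Hspa1a at 2.83 CPM in western and 2.61 CPM in chow and Hspa1b at 0.279 and 0.356 CPM. Hspa1a and Hspa1b are near-identical copies, so their counts could be split by the mapping. Clock genes had a diet median of -0.030, other RNA-recognition-motif proteins -0.0093, hypoxia genes 0.013, and uncoupling and thermogenesis genes -0.0092.

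For genotype, edgeR called 6 of the 134 members. In the list around TrkB and Rtn3, Ntrk2 (-0.076 ± 0.024, edgeR adjusted p 0.0391) and the kinase Akt1 (-0.082 ± 0.025, 0.0347) were among them, both lower in alzheimer rats, in a list with 1 call higher and 2 lower. The RNA helicase Ddx5 was higher (0.056 ± 0.018, 0.0465), the clock activator Npas2 lower (-0.15 ± 0.043, 0.0278) and the hypoxia factor Hif1a higher (0.089 ± 0.021, 0.00675). These shares stand beside 8.03% of all genes called for genotype. In the lists without a call for genotype, the smallest p belonged to Dnajb11 (0.068 ± 0.026), Hspa4l (0.064 ± 0.026), Tial1 (0.11 ± 0.045) and Dio2 (-0.11 ± 0.044). Ntrk2 was also higher in females (0.11 ± 0.024, edgeR adjusted p 0.0151), the SR protein Srsf6 was lower in females (-0.090 ± 0.023, 0.0493), and the angiogenic factor Vegfa was higher in cohort 2 (0.17 ± 0.037, 0.0454).

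In the females minus males contrast of diet, 5 of 134 members were called, all positive, named after their values were seen, beside 154 of all 12547 genes (1.23%; 98 positive and 56 negative). They were the clock genes Per1 (0.71 ± 0.11, edgeR adjusted p 0.000376) and Nfil3 (0.93 ± 0.14, 0.000376), the splicing protein Rbm5 (0.28 ± 0.075, 0.0490), the collagen hydroxylase P4ha1 (0.29 ± 0.072, 0.0328) and the glucocorticoid-responsive factor Klf9 (0.25 ± 0.064, 0.0428). Per1 averaged 78.1 CPM in female western and 61.8 CPM in female chow libraries, and 60.8 CPM in male western and 79.1 CPM in male chow libraries. Its diet difference ran opposite to that of Rbm3 in females and in the same direction as that of Rbm3 in males.

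On residuals, the lists leaned to different sides of Rbm3. The median residual r with Rbm3 was -0.33 for heat-shock chaperones, -0.20 for endoplasmic reticulum chaperones, -0.22 for the TrkB and Rtn3 list and 0.35 for clock genes, beside 0.0096 over all genes. Splicing regulators (0.10), other RNA-recognition-motif proteins (-0.047), hypoxia genes (0.017) and thermogenesis genes (-0.0013) lay nearer to 0. Of the 23 heat-shock chaperones, 16 lay below 0, and the values ran from -0.65 for Dnaja4 to 0.41 for the low-count Hspa1b. Dnajb1 (0.35), Bag3 (0.28) and Hspa1a (0.20) also lay above 0. Of the 17 endoplasmic reticulum chaperones, 14 lay below 0, with a spread from -0.84 to 0.56. Within the clock list the values spread between -0.68 for Arntl and 0.83 for Nr1d2, members that peak at opposite times of the day in rodents. With Cirbp, the medians of all 8 lists lay between -0.10 and 0.10.

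**Figure D5:**
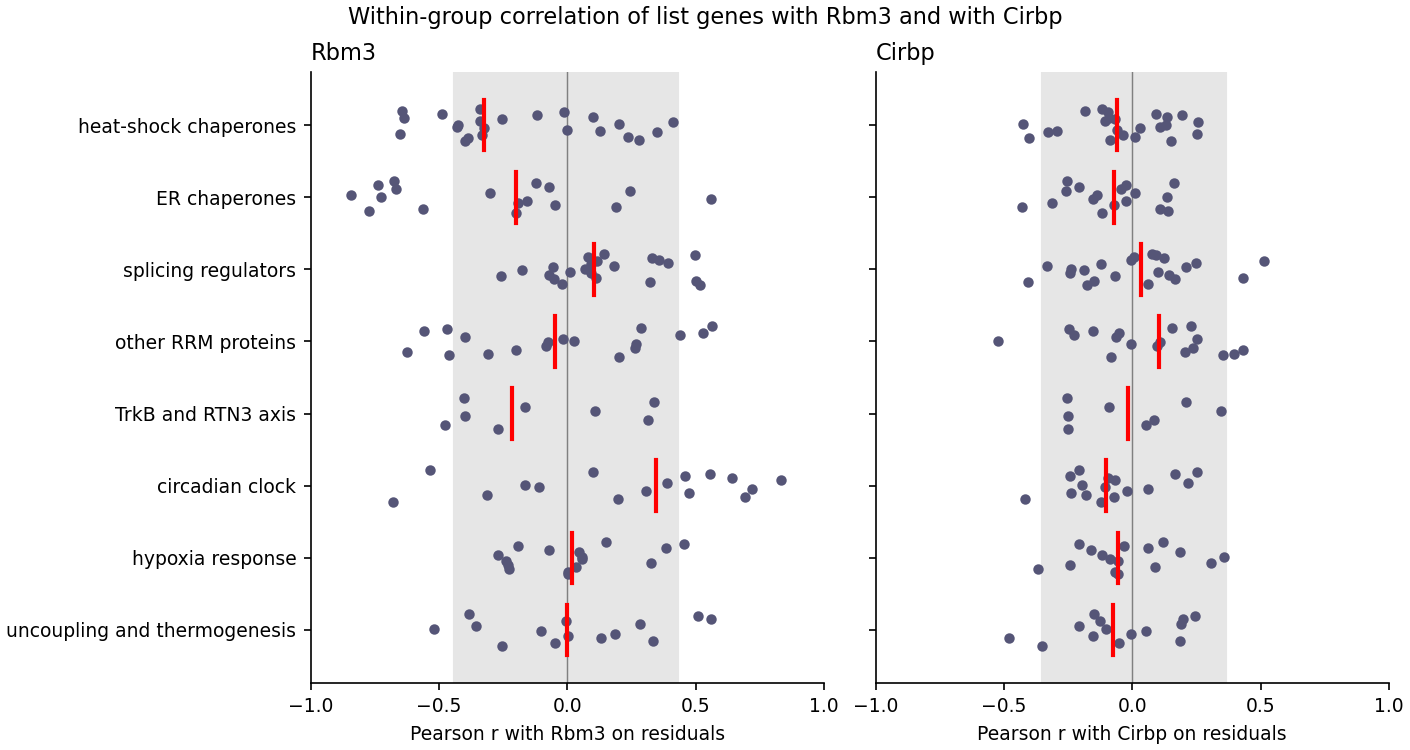
Residual Pearson r of each list member with Rbm3 (left) and with Cirbp (right) over 30 libraries, 1 point per gene, with list medians as red lines and the range that holds the middle 90% of all genes in grey. The medians of clock genes (0.35) and heat-shock chaperones (-0.33) lie on opposite sides of 0 for Rbm3, with members of each list on both sides. The medians for Cirbp stay near 0.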

How the data were processed

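The authors deposited a table of raw counts per gene symbol, and every column was matched to 1 library through the labels. Per the labels, RNA from snap-frozen tissue was enriched for polyadenylated transcripts and made into NEB Ultra II libraries. Adapters were trimmed with cutadapt and reads aligned with STAR 2.7.0a, per the submitters' processing notes. For counting, strand, build and annotation, the sources used here give no setting, so reads of overlapping antisense genes cannot be told apart. Counts were fitted with edgeR 4.0.16 (R 4.3.3) over all 30 libraries with 1 coefficient for each of the 8 groups and cohort as covariate, TMM scaling and filterByExpr (minimum count 10, minimum total 15), which kept 12547 genes. The quasi-likelihood F test was two-sided, with Benjamini-Hochberg adjustment over all genes tested, and a gene was called where the adjusted p was under 0.05. CPM values are TMM-scaled and given as mean ± SD over libraries, and log2 fold changes as estimate ± SE. Correlations of Rbm3 with Cirbp used log2 CPM without a prior count and 100000 permutations (SciPy 1.17.1). Residuals and the r of other genes used log2 CPM with a prior count of 2. The common biological coefficient of variation was 6.27%. The script was tested on simulated counts. Alternatives were median-of-ratios scaling, other filters, DESeq2 1.42.0, limma-voom (limma 3.58.1) with quality weights, no cohort term, depth as covariate, either cohort alone, no choroid-rich libraries, and each library left out in turn. The split of the correlation by sex, the lists in the diet-by-sex contrast and the residual r of picked genes were added after seeing the data. The members, gene lists and tests were chosen with earlier results of these data known. Named genes were Rbm3 and Cirbp, the 5 highest and 3 lowest by r with each, the 5 highest on residuals, the 3 next genes for diet, called list members (or the smallest p for genotype) and fixed regulators. Some genes that this rule gives are not reported here.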

Additional observations from a re-analysis of the deposited data

Results flagged for a closer look

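In male alzheimer rats on chow, the lowest library for Cirbp (replicate 8) stood at 62.98 CPM, away from the other 3, the nearest of which had 68.8 CPM. The same library had the highest Rbm3 of its group (96.1 CPM). In male wildtype rats on western diet, the highest library for Rbm3 (replicate 27) stood at 89.9 CPM and the nearest other at 86.9 CPM, in a group whose whole spread was narrow. Both were marked because the gap of 1 library to its neighbour took up most of the range of its group. They are 2 of 12 sets checked, each set being 1 gene in 1 group of 4 libraries, and chance marks about 1 in 20 sets.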

How the results depend on the processing

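No paired analysis was possible because the labels number the libraries in 1 running series, so the groups share no replicate numbers. The direction of Rbm3 for diet held in all fits and its call was lost in cohort 2 alone (-0.20, adjusted p 0.826) and without the 3 choroid-rich libraries (-0.25, 0.0628). With single libraries left out Rbm3 passed for diet in all 30 fits (edgeR adjusted p 0.00123 to 0.0377). These fits reuse the libraries by which Rbm3 was chosen, so the passes describe that choice and are no separate test. Without the count filter, Rbm3 passed for sex (-0.13, adjusted p 0.0285) and diet by sex (-0.28, 0.0181), and Cirbp for diet by sex (-0.25, 0.0294). In DESeq2 the same 3 results passed (-0.14, -0.28 and -0.25), and in limma-voom none of them did. Cirbp for diet by sex also passed without the choroid-rich libraries (-0.30). With single libraries left out, Rbm3 for diet by sex ran from -0.32 to -0.23 and passed without replicate 8 or 21, and Cirbp ran from -0.28 to -0.20 and passed without replicate 16, 17 or 20. The sign of Cirbp for sex, near 0, turned in cohort 1 alone (-0.017), without the choroid-rich libraries (-0.0017) and in 8 of 30 fits with a library left out (-0.016 to 0.024). Cirbp also turned for genotype by sex in cohort 1 alone (0.13) and with libraries left out (-0.053 to 0.029), for diet in males in cohort 1 alone (-0.0049) and for genotype by diet in cohort 2 alone (-0.068). The r of Rbm3 with Cirbp ran from 0.268, without replicate 18, to 0.490.

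The 1 gene called for diet became 19 in cohort 1 alone, 3 in DESeq2 and 1 or 2 with libraries left out. In edgeR it became 0 in cohort 2 alone and 0 without the choroid-rich libraries, where 731 and 735 genes had an unadjusted p under 0.05. Calls for genotype were 72 in cohort 1 and 573 in cohort 2. Calls for sex were 254 without the filter, 17 in cohort 2, 34 with depth as covariate, 23 without the choroid-rich libraries, 205 in limma-voom, 242 in DESeq2, and 19 (without replicate 11) to 181 (without replicate 9) with libraries left out. Calls for cohort were 113 without the filter, 5 in limma-voom, 104 in DESeq2, 0 to 43 with libraries left out, and 0 in edgeR with depth as covariate or without the choroid-rich libraries, where 1286 and 1442 genes had an unadjusted p under 0.05. The cause of these changes was not tested.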
